A study of Mus musculus with 17 samples.

Results

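Myc and 39 genes of ribosome biogenesis were followed across all 17 mouse samples of the series. The genes were found by symbol in the deposited count tables, and all 40 of them, out of 54532 genes in the tables, were present. The list covers 9 roles, namely the transcription factor Myc, RNA polymerase I, abundant nucleolar proteins, the box C/D and box H/ACA snoRNPs, the small subunit processome, late small subunit assembly, the PeBoW complex and large subunit factors. Of the 40, Wdr74, a large subunit factor, had 0 to 7 counts per library and did not pass the filter on low counts, which left 39 genes tested in each set.

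RNA was sequenced from MutuDC, an established mouse line of the conventional dendritic cell type, in 4 arms, and from CD45+ cells, the white blood cells, in 2 arms. The MutuDC arms were Vkine with LPS (n = 3), Vkine without LPS (n = 3), EV with LPS (n = 3) and EV without LPS (n = 2), and the CD45 arms were Vkine (n = 3) and EV (n = 3). Vkine stands for versikine, a fragment cut by proteases from the matrix proteoglycan versican. EV is the label of the arm it was set against and is a usual abbreviation of empty vector, and LPS is bacterial lipopolysaccharide, which activates dendritic cells through a Toll-like receptor. The sources used here do not give how Vkine was delivered, the dose and time of LPS, or the clone or passage of MutuDC. The CD45 samples are called tumor in their sample type and bone marrow in their source field, and the titles leave unclear whether the 3 EV samples come from 3 animals. Nothing states that replicates are separate cultures or animals, so p-values here reflect sample-to-sample spread that may be technical.

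Ribosomes are built in the nucleolus, where RNA polymerase I transcribes the ribosomal RNA precursor. Small nucleolar ribonucleoproteins (snoRNPs) and the small subunit processome modify, fold and cut that precursor, and further factors carry the small and large subunits through their later assembly and export. MYC, which binds DNA with its partner MAX at sequences called E-boxes, is known to raise the transcription of many of these genes when cells grow, and immune cells build more ribosomes when they are activated.

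The sequences below are the stretches just before the start of the 4 genes that had the smallest p in the response to LPS in Vkine cells and a promoter window at hand, and the places where a promoter window of the listed genes held the E-box CACGTG. They are from RefSeq (GRCm38.p6), are written in the direction of transcription, and have the E-box in capitals. Each window ran from 250 bases before the start to 50 bases after it, and the first 4 lines show the 150 bases up to the start.
Mybbp1a (chr11:72441177-72441326, plus strand): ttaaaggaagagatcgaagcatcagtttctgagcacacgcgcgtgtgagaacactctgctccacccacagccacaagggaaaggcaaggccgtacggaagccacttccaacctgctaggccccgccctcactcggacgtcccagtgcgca
Bysl (chr17:47611493-47611642, minus strand): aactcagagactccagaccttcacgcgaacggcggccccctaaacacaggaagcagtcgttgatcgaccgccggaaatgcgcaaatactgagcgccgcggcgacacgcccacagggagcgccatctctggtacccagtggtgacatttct
Nop2 (chr6:125131733-125131882, plus strand): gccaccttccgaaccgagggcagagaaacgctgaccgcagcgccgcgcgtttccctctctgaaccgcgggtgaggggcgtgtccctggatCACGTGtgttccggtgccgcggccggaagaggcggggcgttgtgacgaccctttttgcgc
Gar1 (chr3:129831397-129831546, minus strand): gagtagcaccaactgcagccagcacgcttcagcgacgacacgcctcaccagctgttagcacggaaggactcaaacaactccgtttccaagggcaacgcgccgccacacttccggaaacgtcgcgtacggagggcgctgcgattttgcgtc
The E-box of Nop2 began 60 bases before the start, and the promoters of Mybbp1a, Bysl and Gar1 held none in the stretch shown. The other 8 genes with an E-box in the window follow, with up to 10 bases on either side.
Imp4 (chr1:34439698-34439723, plus strand): ggtcttagacCACGTGacatcccaaa
Utp4 (chr8:106893645-106893670, plus strand): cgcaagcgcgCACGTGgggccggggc
Ltv1 (chr10:13193094-13193119, minus strand): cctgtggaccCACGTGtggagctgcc
Utp20 (chr10:88826765-88826787, minus strand): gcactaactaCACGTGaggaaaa
Pes1 (chr11:3963967-3963992, plus strand): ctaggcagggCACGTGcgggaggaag
Mybbp1a (chr11:72441357-72441376, plus strand): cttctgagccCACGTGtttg
Tsr1 (chr11:74898094-74898119, plus strand): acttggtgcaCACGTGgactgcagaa
Wdr43 (chr17:71616222-71616247, plus strand): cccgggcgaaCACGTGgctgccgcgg
The E-box of Imp4 lay 121 bases before the start, and the other 7 began between base 3 (Pes1) and base 41 (Mybbp1a) of the transcript, counted from 1 at its first base.

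CACGTG reads the same on both strands, so each match counts for both. Of the 34 listed genes with a window, 9 (26.5%) held it, against 8.09% of 27025 genes with a window and 15 of 84 (17.9%) in a list of other ribosome biogenesis genes. Bop1, Fbl, Myc, Npm1, Rrp12 and Rrs1 were not among the windows. A match describes the letters only. The 9 genes with an E-box included both Mybbp1a, whose log2 fold change with LPS in Vkine cells was 1.01 ± 0.06 (SE), and Ltv1, where it was 0.15 ± 0.07.

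Library totals were 15938185 to 21263321 counts in MutuDC and 13814620 to 18125269 counts in the CD45 set. All 13 dendritic cell markers passed the filter in MutuDC, where their summed level was 15407 to 21532 CPM, and all 4 leukocyte markers were above 1 CPM in every CD45 group. CPM are counts scaled to library size with TMM factors. The 40 genes took 0.873% to 0.888% of all counts in Vkine + LPS libraries, 0.623% to 0.632% in Vkine libraries, 0.842% to 0.915% in EV + LPS libraries and 0.849% to 0.852% in EV libraries of MutuDC. In the CD45 set the share was 0.196% to 0.215% with Vkine and 0.238% to 0.288% with EV.

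Without LPS, the listed genes were lower with Vkine in MutuDC nearly throughout, as 37 of the 39 tested genes were called lower than in EV cells and 0 were called higher. Myc itself was among them, together with all 3 RNA polymerase I genes, all 4 abundant nucleolar proteins, all 7 snoRNP genes, all 6 processome genes and all 3 PeBoW genes. A gene was called where the edgeR quasi-likelihood test gave an adjusted p under 0.05, and over all 13357 genes 35.2% were called and 18.3% were called lower. The median log2 fold change of the listed genes was -0.60, against 0.01 over all genes. Bysl (-0.90 ± 0.08, SE), Rrp1b (-0.86 ± 0.08), Rrp12 (-0.83 ± 0.08), Rrp9 (-0.78 ± 0.10) and Pes1 (-0.77 ± 0.07) had the largest log2 fold changes. The 2 genes not called were Ltv1, at 0.03 ± 0.08 (SE, adjusted p = 0.79), and Ebna1bp2, at -0.19 ± 0.10 (SE, adjusted p = 0.16). In 32 of the 39 genes every Vkine sample lay below the other 8 MutuDC samples, a pattern seen in 10.5% of all genes. Vkine had the lowest mean of the 4 arms in 37 of them, against 29.3% of all genes. The calls of Heatr1, Imp4, Nop58, Utp20 and Gnl3 ended without EV replicate 1 (adjusted p 0.069 to 0.17) and without EV replicate 2 (0.053 to 0.29), and that of Ddx18 without EV replicate 1 (0.069). Those of Heatr1, Nop58 and Utp20 also ended without Vkine replicate 1, those of Heatr1 and Nop58 without Vkine replicate 2, and that of Imp4 without Vkine replicate 3. With limma on log2 FPKM the calls of Heatr1 (adjusted p 0.16), Utp20 (0.11), Imp4 and Nop58 (0.084 to 0.088) were lost too.

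**Figure D1:**
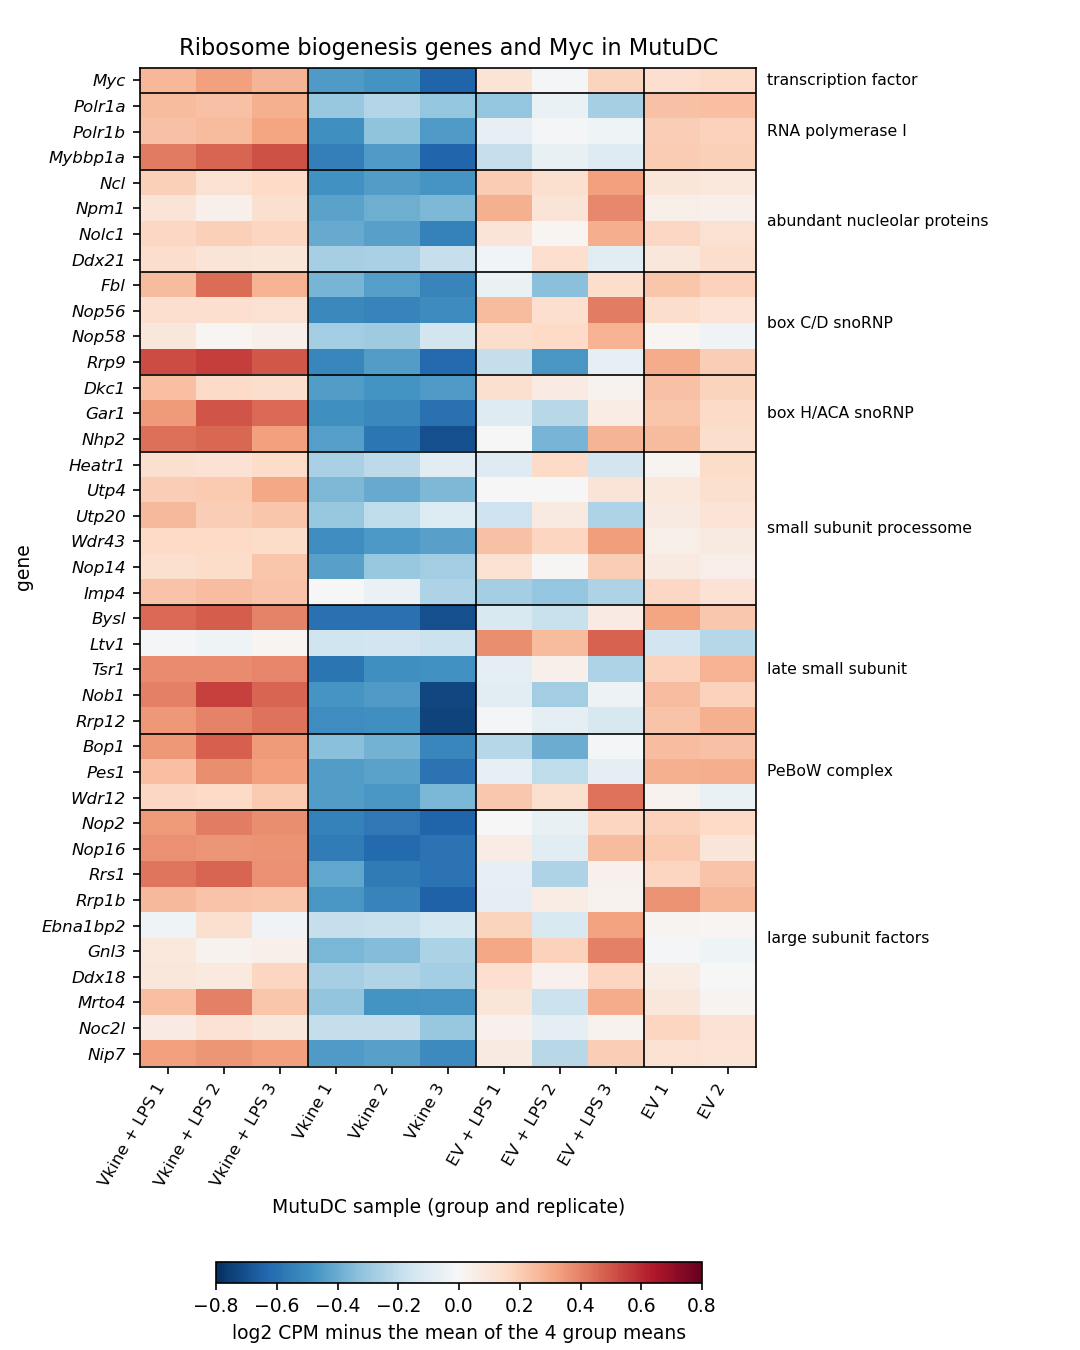
Level of each of the 39 tested genes (rows, grouped by role) in the 11 MutuDC samples (columns), as log2 CPM minus the mean of the 4 group means. Blue marks lower and red higher than that mean, and the 3 Vkine columns are blue in nearly every row.

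LPS moved the same genes differently in the Vkine and EV arms. In Vkine cells 37 of 39 were called higher with LPS and 0 lower, with a median log2 fold change of 0.65 against 0.01 over all genes, of which 51.9% were called and 27.6% called higher. In EV cells 6 were called higher, 14 lower and 19 neither, with a median of -0.13 against 0.01 over all genes, of which 34.8% were called, 17.2% higher and 17.6% lower. The log2 fold change was above 0 for all 39 in Vkine cells (50.6% of all genes) and below 0 for 27 in EV cells (49.2% of all genes). These 2 comparisons share no samples, and the share of all genes with each pair of calls was not counted. In both arms 5 genes were called higher, namely Gnl3, Nop58, Npm1, Wdr12 and Wdr43. Another 14 were called higher in the Vkine arm and lower in the EV arm, namely Bop1, Bysl, Gar1, Imp4, Mybbp1a, Nob1, Pes1, Polr1a, Polr1b, Rrp12, Rrp1b, Rrp9, Rrs1 and Tsr1. A further 18, Myc among them, were called only in the Vkine arm, Ltv1 was called higher only in the EV arm, and Ebna1bp2 in neither. In the Vkine arm the count of called genes was 37 to 39 with 1 sample left out. The EV arm rests on 2 untreated samples, and its count of 20 called genes dropped to 10 with EV replicate 1 left out, to 11 with EV replicate 2 left out and to 12 when only the EV and EV + LPS samples were fitted, each time with 2 called higher. The calls of Nop58, Npm1, Wdr12, Wdr43, Gar1, Polr1b and Rrs1 ended without EV replicate 1 and without EV replicate 2, those of Bysl, Nob1 and Rrp1b without EV replicate 1 alone of the 2, and those of Rrp12 and Tsr1 without EV replicate 2 alone.

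The difference between the 2 LPS effects was tested as the interaction of Vkine and LPS, that is the log2 fold change with LPS in Vkine cells minus that in EV cells. It was called above 0 for 35 of the 39 genes and below 0 for 1, Ltv1, with a median of 0.77 against -0.02 over all genes. Over all genes 49.2% were called, 25.5% above 0 and 23.7% below 0. The interaction was largest for Rrp9 (1.53 ± 0.14, SE), Bysl (1.41 ± 0.11), Nob1 (1.36 ± 0.12), Mybbp1a (1.32 ± 0.09) and Rrp12 (1.29 ± 0.11). It was not called for Nop58 (0.09 ± 0.09, SE, adjusted p = 0.45), Gnl3 (0.04 ± 0.10, SE, adjusted p = 0.75) and Ebna1bp2 (0.07 ± 0.13, SE, adjusted p = 0.68). Of 20 alternatives, the call of Npm1 was lost in 14, that of Wdr12 in 9, that of Ddx18 in 6 and that of Heatr1 in 3. For Npm1 these were 8 of the samples left out in turn, both other scalings, DESeq2 (adjusted p 0.058), no low-count filter (0.071) and limma on log2 FPKM with either constant added (0.39). The calls of Wdr12 (0.20), Ddx18 (0.15 and 0.16) and Heatr1 (0.10) were also lost with limma and without EV replicate 2, and those of Wdr12 and Ddx18 without EV replicate 1. That of Wdr12 was lost as well without EV + LPS replicate 1, Vkine + LPS replicate 3, or Vkine replicate 1 or 2. The interaction uses all 4 arms and so shares samples with every comparison above, as the LPS comparison in Vkine cells shares its Vkine samples with the comparison of Vkine with EV.

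**Figure D2:**
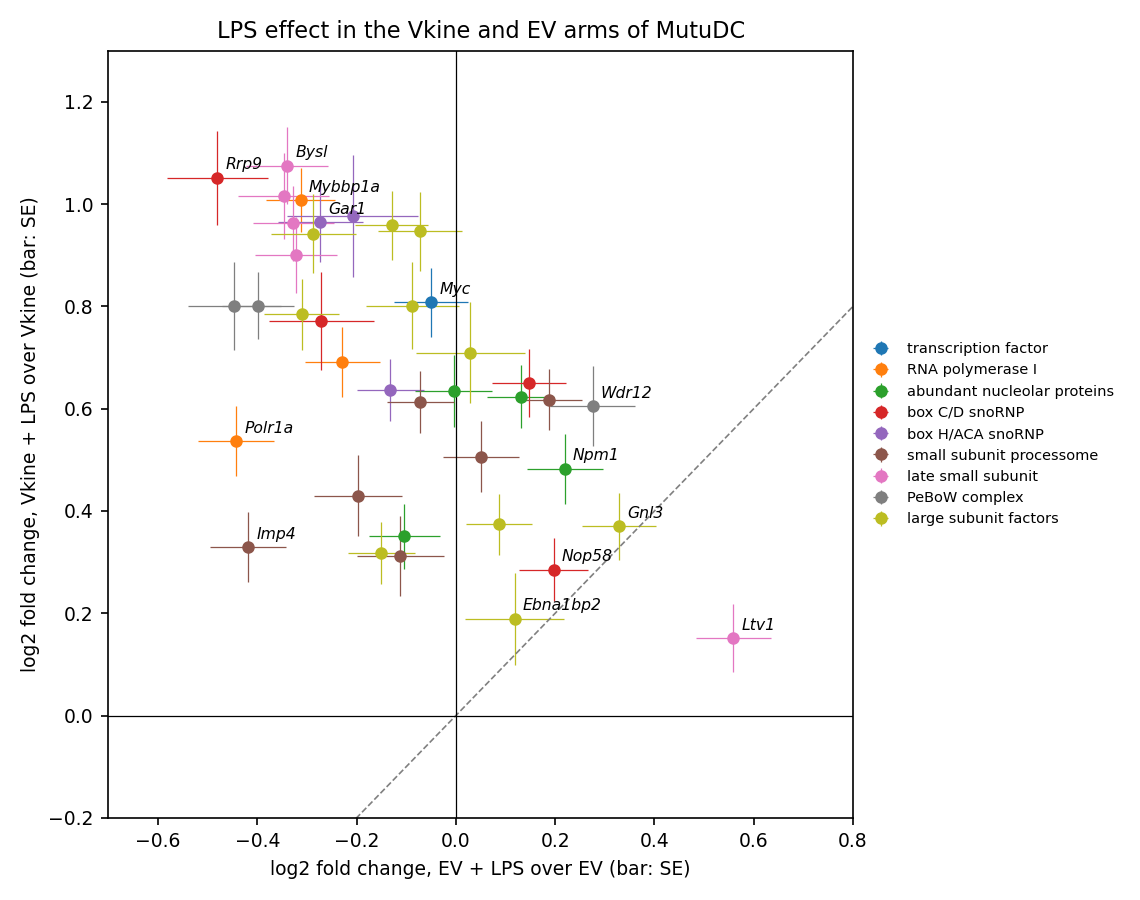
Log2 fold change with LPS in the Vkine arm (vertical axis) against that in the EV arm (horizontal axis) for the 39 genes, coloured by role, with bars of 1 SE, and equal effects on the dashed line. All 39 points lie above 0 on the vertical axis while 27 lie below 0 on the horizontal axis, and Ltv1 stands on the far side of the dashed line.

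The arms were also compared with LPS in both. Of the 39 genes 22 were called higher in Vkine + LPS than in EV + LPS, 2 lower and 15 neither, with a median log2 fold change of 0.23 against 0.01 over all genes, of which 42% were called, 22.8% higher and 19.2% lower. All 22 genes called higher here were among the 37 called lower with Vkine in the absence of LPS. As those 37 are nearly the whole list, this overlap was close to fixed. The share of all genes with both calls was not counted. Rrp9 (0.76 ± 0.09, SE), Nob1 (0.61 ± 0.08), Bop1 (0.60 ± 0.09), Mybbp1a (0.58 ± 0.06) and Bysl (0.52 ± 0.07) had the largest log2 fold changes, and the 2 called lower were Ltv1 (-0.38 ± 0.07) and Gnl3 (-0.25 ± 0.07). The call of Rrp1b was lost in 3 of 21 alternatives, without EV + LPS replicate 1 (adjusted p 0.063) and with limma on log2 FPKM (0.056 and 0.058). That of Utp4 was lost in 7, at adjusted p 0.052 to 0.075, namely without EV + LPS replicate 1 or Vkine + LPS replicate 3, with limma, with upper-quartile factors, without the low-count filter and with only the compared groups fitted. Vkine + LPS had the highest mean of the 4 arms for 26 of the 39 genes (27.1% of all genes), EV + LPS for 9 (24.4%) and EV for 4 (20%).

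Myc encodes the transcription factor and lies at chr15:61985391-61990374 (GRCm38). It was measured at 231, 241 and 232 CPM in Vkine + LPS cells, 140.3, 138 and 123 CPM in Vkine cells, 207, 191 and 217 CPM in EV + LPS cells, and 211 and 214 CPM in EV cells. The 3 Vkine samples were the lowest of the 11 and apart from all others, the EV + LPS and EV samples overlapped, and the 3 Vkine + LPS samples were the highest. Without LPS the log2 fold change of Vkine over EV was -0.66 ± 0.07 (SE, adjusted p = 5.4e-06). LPS raised Myc in Vkine cells by 0.81 ± 0.07 (SE, adjusted p = 9.0e-08) on the log2 scale and gave -0.05 ± 0.07 (SE, adjusted p = 0.64) in EV cells, an interaction of 0.86 ± 0.10 (SE, adjusted p = 4.2e-06). Between Vkine + LPS and EV + LPS the log2 fold change was 0.19 ± 0.07 (SE, adjusted p = 0.028), and that call was lost in 13 of 21 alternatives, among them leaving out any 1 Vkine + LPS or EV sample or EV + LPS replicate 1 or 2, where the adjusted p was 0.051 to 0.10.

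**Figure D3:**
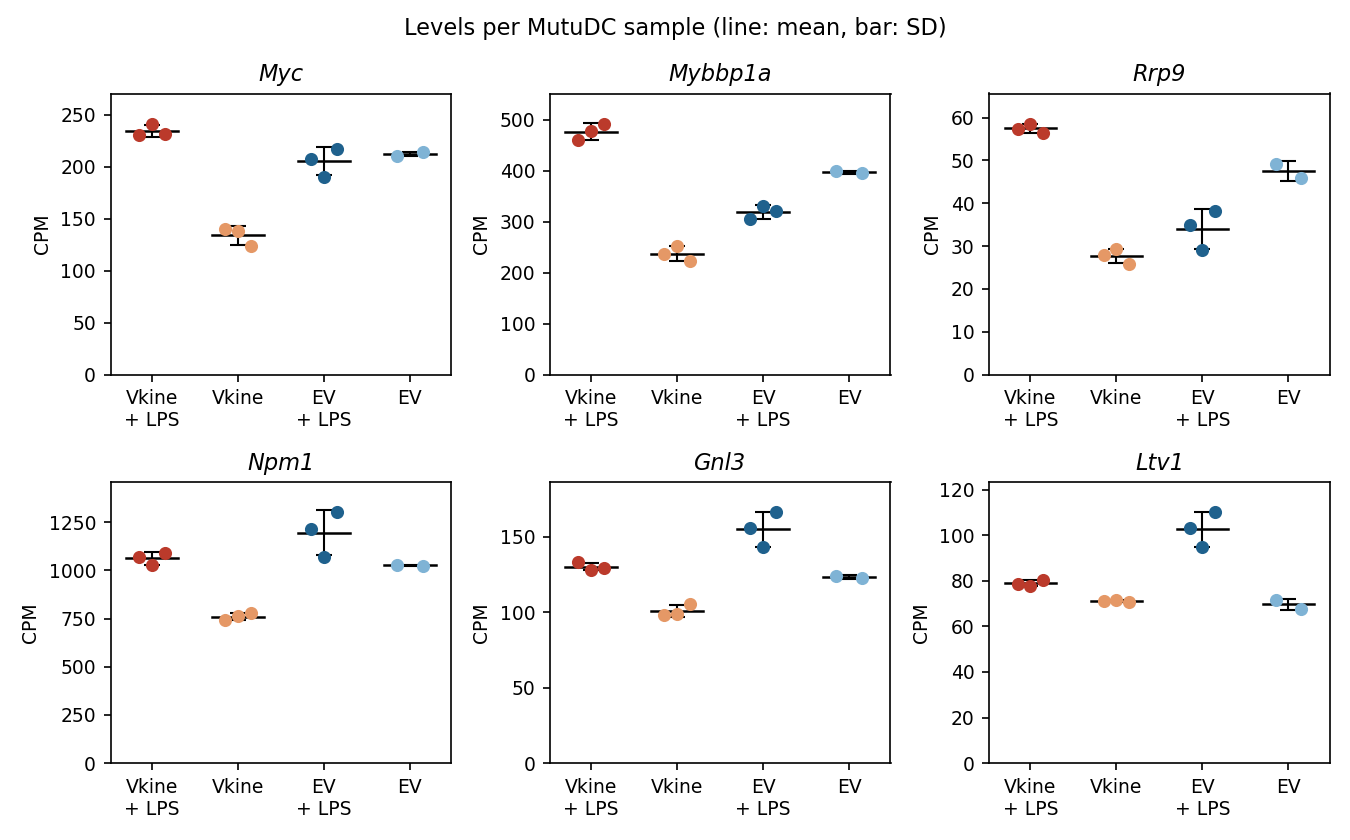
CPM of Myc, Mybbp1a, Rrp9, Npm1, Gnl3 and Ltv1 in each MutuDC sample (points), with the group mean (line) and SD (bar), from Vkine + LPS on the left to EV on the right. For Myc, Mybbp1a and Rrp9 the Vkine + LPS points are the highest, whereas for Npm1, Gnl3 and Ltv1 the EV + LPS group has the highest mean.

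Polr1a and Polr1b encode the catalytic subunits of RNA polymerase I, and Mybbp1a encodes a nucleolar protein that binds the polymerase. Mybbp1a (chr11:72441355-72451768), whose promoter is printed above, was measured at 461, 478 and 493 CPM in Vkine + LPS cells, 236, 252 and 223 CPM in Vkine cells, 305, 332 and 322 CPM in EV + LPS cells, and 399 and 395 CPM in EV cells. The 4 groups did not overlap and ran from Vkine, the lowest, through EV + LPS and EV to Vkine + LPS. Its log2 fold change was -0.74 ± 0.07 (SE, adjusted p = 7.6e-07) for Vkine over EV, 1.01 ± 0.06 (SE, adjusted p = 3.4e-09) for LPS in Vkine cells and -0.31 ± 0.07 (SE, adjusted p = 0.0023) for LPS in EV cells. Polr1a was measured at 156, 153 and 159 CPM in Vkine + LPS cells, 106, 111 and 106 CPM in Vkine cells, 105, 126 and 109 CPM in EV + LPS cells, and 153 and 154 CPM in EV cells. Here EV + LPS was nearly as low as Vkine, since 2 of its 3 samples lay within or below the Vkine range, and Vkine + LPS overlapped with EV. LPS changed Polr1a by 0.54 ± 0.07 (SE, adjusted p = 9.4e-06) in Vkine cells and by -0.44 ± 0.08 (SE, adjusted p = 0.00032) in EV cells. Polr1b changed by 0.69 ± 0.07 in Vkine cells and by -0.23 ± 0.08 in EV cells (SE), and the call in EV cells also ended without EV + LPS replicate 1 (adjusted p 0.075).

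Nucleolin (Ncl) and nucleophosmin (Npm1) are abundant nucleolar chaperones, Nolc1 is a chaperone of snoRNPs, and Ddx21 is an RNA helicase of the nucleolus. All 4 were called lower in Vkine than in EV cells and higher in Vkine + LPS than in Vkine cells, and 0 of the 4 were called between Vkine + LPS and EV + LPS. Npm1 (chr11:33152287-33163206) was measured at 1072, 1026 and 1092 CPM in Vkine + LPS cells, 742, 761 and 779 CPM in Vkine cells, 1216, 1069.5 and 1303 CPM in EV + LPS cells, and 1029 and 1025 CPM in EV cells. Vkine was lowest without overlap, while Vkine + LPS overlapped with both EV + LPS and EV. LPS raised Npm1 by 0.48 ± 0.07 (SE, adjusted p = 2.6e-05) in Vkine cells and by 0.22 ± 0.08 (SE, adjusted p = 0.036) in EV cells, but the call in EV cells ended without either EV sample (adjusted p 0.15 and 0.16), without EV + LPS replicate 1 (0.095) or 3 (0.087), and without Vkine replicate 2 (0.055) or Vkine + LPS replicate 1 (0.051) or 3 (0.054). Between Vkine + LPS and EV + LPS the value was -0.17 ± 0.07 (SE, adjusted p = 0.056), and it was called lower in 10 of 21 alternatives, including those without EV replicate 1 or 2 (both 0.048) or EV + LPS replicate 2 (0.00041). Ncl changed by -0.56 ± 0.07 with Vkine and by 0.62 ± 0.06 with LPS in Vkine cells, and was at 0.13 ± 0.07 (adjusted p = 0.15) with LPS in EV cells.

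Among the snoRNP proteins, fibrillarin (Fbl) is the methyltransferase of the box C/D particles, Nop56 and Nop58 are their core proteins, and Rrp9 belongs to the particle that directs early cleavage of the precursor. Dkc1 is the pseudouridine synthase of the box H/ACA particles, with Gar1 and Nhp2 as core partners. Rrp9 (chr9:106475963-106485424) was measured at 57.4, 58.6 and 56.4 CPM in Vkine + LPS cells, 27.9, 29.3 and 25.9 CPM in Vkine cells, 35.0, 29.0 and 38.1 CPM in EV + LPS cells, and 49.1 and 45.9 CPM in EV cells. Vkine was lowest on average but EV + LPS replicate 2 lay within its range, and every Vkine + LPS sample was above the other 8. The log2 fold change of Rrp9 with LPS was 1.05 ± 0.09 (SE, adjusted p = 1.6e-07) in Vkine cells and -0.48 ± 0.10 (SE, adjusted p = 0.0016) in EV cells. Gar1 (chr3:129824912-129831396) was measured at 83.0, 92.8 and 89.7 CPM in Vkine + LPS cells, 46.6, 45.8 and 43.4 CPM in Vkine cells, 61.1, 56.2 and 68.2 CPM in EV + LPS cells, and 76.5 and 73.0 CPM in EV cells. Its 4 groups did not overlap and had the same order as those of Mybbp1a. Its LPS log2 fold change was 0.97 ± 0.08 (SE, adjusted p = 6.2e-08) in Vkine cells and -0.27 ± 0.09 (SE, adjusted p = 0.021) in EV cells, and the call in EV cells was lost without EV replicate 1 (adjusted p 0.15), EV replicate 2 (0.066) or EV + LPS replicate 1 (0.059). Nop58 differed from these, with a smaller log2 fold change of -0.23 ± 0.07 for Vkine over EV and an interaction that was not called. With LPS in EV cells Nop58 was at 0.20 ± 0.07 (SE, adjusted p = 0.037), a call that was also lost without EV + LPS replicate 3 (0.080), Vkine replicate 2 (0.052) or Vkine + LPS replicate 3 (0.058).

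The processome genes Heatr1, Utp4, Utp20, Wdr43, Nop14 and Imp4 encode proteins that assemble on the growing precursor of the small subunit. All 6 were called lower with Vkine and higher with LPS in Vkine cells. The call of Heatr1 with LPS in Vkine cells was lost with limma on log2 FPKM (adjusted p 0.080 and 0.081). Their median log2 fold change was -0.35 for Vkine over EV and 0.47 for LPS in Vkine cells. Imp4, which had an E-box 121 bases before its start, was measured at 105, 106 and 105 CPM in Vkine + LPS cells, 89.5, 86.3 and 75.4 CPM in Vkine cells, 74.1, 72.3 and 75.6 CPM in EV + LPS cells, and 101 and 97.1 CPM in EV cells. It was 1 of the 2 genes in which Vkine did not have the lowest mean, since the mean of EV + LPS was lower, and Vkine replicate 3 lay inside the EV + LPS range. LPS changed Imp4 by 0.33 ± 0.07 (SE, adjusted p = 0.00079) in Vkine cells and by -0.42 ± 0.08 (SE, adjusted p = 0.00053) in EV cells. Wdr43 rose with LPS by 0.62 ± 0.06 (SE, adjusted p = 4.6e-07) in Vkine cells and by 0.19 ± 0.07 (SE, adjusted p = 0.037) in EV cells, and the call in EV cells was lost without any 1 of 8 of the 11 samples.

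Bysl, Ltv1 and Tsr1 encode assembly factors that ride on the maturing small subunit, Nob1 the nuclease that makes its final RNA cut, and Rrp12 a factor of its export. Bysl (chr17:47599331-47611492) was measured at 82.9, 84.9 and 79.8 CPM in Vkine + LPS cells, 40.1, 40.1 and 37.3 CPM in Vkine cells, 55.8, 53.7 and 63.6 CPM in EV + LPS cells, and 75.5 and 70.6 CPM in EV cells. The 4 groups did not overlap, with Vkine lowest and Vkine + LPS highest. The log2 fold change was -0.90 ± 0.08 (SE, adjusted p = 7.0e-07) for Vkine over EV, 1.08 ± 0.08 (SE, adjusted p = 1.3e-08) for LPS in Vkine cells and -0.34 ± 0.08 (SE, adjusted p = 0.0044) for LPS in EV cells. Of the exonic bases of Bysl 9.4% are shared with Ccnd3 on the opposite strand, and 32.3% of those of Tsr1 with Srr. Whether counting used strand is not given in the sources used here.

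Nob1 was measured at 101, 112 and 106 CPM in Vkine + LPS cells, 55.3, 55.9 and 46.3 CPM in Vkine cells, 72.0, 63.1 and 74.5 CPM in EV + LPS cells, and 90.8 and 87.0 CPM in EV cells. Rrp12 was measured at 95.7, 99.0 and 102 CPM in Vkine + LPS cells, 53.4, 53.5 and 45.1 CPM in Vkine cells, 74.6, 71.6 and 69.1 CPM in EV + LPS cells, and 88.4 and 91.7 CPM in EV cells. In both genes the 4 groups were apart from each other and in the same order as for Bysl. LPS changed Nob1 by 1.02 ± 0.08 in Vkine cells and by -0.35 ± 0.09 in EV cells (SE). Rrp12 changed by 0.96 ± 0.07 in Vkine cells and by -0.33 ± 0.08 in EV cells (SE).

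Ltv1 (chr10:13178140-13193168) was, in the edgeR fit of all samples, the one gene called higher with LPS in EV cells and not in Vkine cells. With 1 sample left out, up to 39 genes of the list were called with LPS in Vkine cells, so the missing call of Ltv1 there depended on the fit. It was measured at 78.8, 77.7 and 80.5 CPM in Vkine + LPS cells, 71.3, 71.4 and 70.6 CPM in Vkine cells, 103, 94.6 and 110.1 CPM in EV + LPS cells, and 71.5 and 67.8 CPM in EV cells. The 3 EV + LPS samples were the highest, the Vkine + LPS samples came next, and Vkine and EV overlapped. LPS raised Ltv1 in EV cells by 0.56 ± 0.08 (SE, adjusted p = 3.7e-05) on the log2 scale and gave 0.15 ± 0.07 (SE, adjusted p = 0.068) in Vkine cells. Its interaction of -0.41 ± 0.10 (SE, adjusted p = 0.0032) was the one interaction called below 0 in the list, and its level was lower in Vkine + LPS than in EV + LPS cells (-0.38 ± 0.07, SE, adjusted p = 0.00030).

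Pes1, Bop1 and Wdr12 form the PeBoW complex, which is needed to process the RNA of the large subunit. Pes1 was measured at 189, 207 and 201 CPM in Vkine + LPS cells, 117, 119 and 106 CPM in Vkine cells, 153, 139 and 152 CPM in EV + LPS cells, and 195 and 195 CPM in EV cells. Bop1 was measured at 151, 165 and 151 CPM in Vkine + LPS cells, 94.0, 91.4 and 82.6 CPM in Vkine cells, 101, 90.0 and 117 CPM in EV + LPS cells, and 141 and 139 CPM in EV cells. Wdr12 was measured at 78.2, 77.8 and 80.8 CPM in Vkine + LPS cells, 51.1, 50.5 and 54.1 CPM in Vkine cells, 81.2, 76.2 and 94.1 CPM in EV + LPS cells, and 71.2 and 67.3 CPM in EV cells. Vkine was the lowest arm for all 3 genes, although for Bop1 EV + LPS replicate 2 lay within the Vkine range. With LPS in Vkine cells all 3 were called higher, at log2 fold changes of 0.80 ± 0.07 for Pes1, 0.80 ± 0.09 for Bop1 and 0.61 ± 0.08 for Wdr12 (SE). In EV cells Pes1 (-0.40 ± 0.07, SE, adjusted p = 0.00053) and Bop1 (-0.45 ± 0.09, SE, adjusted p = 0.0017) were called lower and Wdr12 (0.28 ± 0.09, SE, adjusted p = 0.021) was called higher. The call of Wdr12 was lost without EV replicate 1 (adjusted p 0.067), EV replicate 2 (0.16) or EV + LPS replicate 3 (0.061).

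Of the 10 large subunit factors tested, 9 were called lower with Vkine and 9 higher with LPS in Vkine cells, Ebna1bp2 being the exception in both. Nop2, an RNA methyltransferase (chr6:125131909-125144753), was measured at 185, 194 and 189 CPM in Vkine + LPS cells, 100.2, 98.2 and 93.4 CPM in Vkine cells, 145, 139.6 and 164 CPM in EV + LPS cells, and 165 and 162 CPM in EV cells. Vkine samples were lowest, Vkine + LPS samples highest, and EV + LPS and EV samples overlapped. Its log2 fold change was -0.75 ± 0.07 (SE, adjusted p = 1.5e-06) for Vkine over EV and 0.96 ± 0.07 (SE, adjusted p = 1.4e-08) for LPS in Vkine cells, against -0.13 ± 0.07 (SE, adjusted p = 0.19) for LPS in EV cells. Rrp1b was measured at 78.1, 76.7 and 76.2 CPM in Vkine + LPS cells, 47.3, 45.1 and 41.6 CPM in Vkine cells, 61.9, 68.0 and 66.6 CPM in EV + LPS cells, and 84.0 and 78.4 CPM in EV cells. EV replicate 1 was the highest of the 11, and the log2 fold change with LPS was 0.78 ± 0.07 (SE, adjusted p = 1.9e-07) in Vkine cells and -0.31 ± 0.08 (SE, adjusted p = 0.0048) in EV cells.

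Gnl3 (chr14:31012433-31019152) encodes nucleostemin, a nucleolar GTPase. It was measured at 133, 128 and 129 CPM in Vkine + LPS cells, 97.8, 99.0 and 105 CPM in Vkine cells, 156, 143 and 166 CPM in EV + LPS cells, and 124 and 122 CPM in EV cells. The groups were apart, with Vkine lowest and EV + LPS highest. LPS raised Gnl3 in both arms, by 0.37 ± 0.07 (SE, adjusted p = 0.00022) in Vkine cells and by 0.33 ± 0.07 (SE, adjusted p = 0.0026) in EV cells, and the interaction of 0.04 ± 0.10 (SE) was not called. Gnl3 was called lower in Vkine than in EV cells both with LPS (-0.25 ± 0.07, SE, adjusted p = 0.0059) and without it (-0.29 ± 0.07, SE, adjusted p = 0.0054). The call without LPS was lost without EV replicate 1 (adjusted p 0.069) or EV replicate 2 (0.053). Rrs1, Nop16, Nip7, Mrto4, Noc2l and Ddx18 were called higher with LPS in Vkine cells at log2 fold changes from 0.32 (Noc2l) to 0.95 (Nop16), and of these Rrs1 alone was called with LPS in EV cells, at -0.29 ± 0.09 (SE, adjusted p = 0.015). Noc2l shares 20.9% of its exonic bases with Samd11.

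A list of 101 other ribosome biogenesis genes, from RNA polymerase I to large subunit factors, was counted in the same comparisons, and its medians lay closer to 0. It held 0 genes called higher and 49 called lower with Vkine (median -0.24), and 73 higher and 2 lower with LPS in Vkine cells (median 0.37). With LPS in EV cells 23 were called higher and 21 lower (median 0.00), counts that were 16 higher and 13 lower without EV replicate 1. Without EV + LPS replicate 2 they were 35 higher and 21 lower, and with only the compared groups fitted 20 higher and 12 lower. Between Vkine + LPS and EV + LPS 36 were called higher and 17 lower (median 0.11), and 11 lower without Vkine + LPS replicate 2 or 3. As shares, 48.5% were called with Vkine (35.2% of all genes) and 74.3% with LPS in Vkine cells (51.9%). With LPS in EV cells 43.6% were called (34.8% of all genes), and 52.5% between Vkine + LPS and EV + LPS (42%). Cd3eap, a subunit of RNA polymerase I, averaged 34.5 ± 1.29 CPM in Vkine + LPS, 16.2 ± 2.47 CPM in Vkine, 22.0 ± 3.73 CPM in EV + LPS (SD, n = 3 each) and 35.0 ± 0.796 CPM in EV cells (n = 2). Its log2 fold change was -1.10 ± 0.13 (SE, adjusted p = 9.2e-06) for Vkine over EV, 1.08 ± 0.12 (SE, adjusted p = 1.8e-06) for LPS in Vkine cells and -0.67 ± 0.13 (SE, adjusted p = 0.00081) for LPS in EV cells. Wdr46, a processome protein, had a log2 fold change of -0.97 ± 0.08 for Vkine over EV, 1.03 ± 0.08 for LPS in Vkine cells and -0.41 ± 0.08 for LPS in EV cells (SE). Mdn1, the large ATPase of the large subunit precursor, was not called with LPS in Vkine cells (0.31 ± 0.16, SE, adjusted p = 0.13) and was called lower with LPS in EV cells (-0.99 ± 0.18, SE, adjusted p = 0.0012).

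Of 28 other known MYC target genes, 1 was called higher and 18 lower with Vkine, 20 higher and 1 lower with LPS in Vkine cells, and 3 higher and 10 lower with LPS in EV cells. The last counts were 1 higher and 5 lower without either EV sample, and 1 higher and 4 lower with only the compared groups fitted. Without EV + LPS replicate 2 they were 6 higher and 10 lower, and 1 was higher without EV + LPS replicate 1 or Vkine + LPS replicate 3. As shares, 67.9% were called with Vkine (35.2% of all genes), 75% with LPS in Vkine cells (51.9%) and 46.4% with LPS in EV cells (34.8%). Srm, which makes spermidine, averaged 112 ± 8.58 CPM in Vkine + LPS, 58.9 ± 4.38 CPM in Vkine, 86.9 ± 15.4 CPM in EV + LPS (SD, n = 3 each) and 105 ± 3.28 CPM in EV cells (n = 2). It changed by -0.84 ± 0.11 (SE, adjusted p = 3.7e-05) with Vkine and by 0.93 ± 0.10 (SE, adjusted p = 2.2e-06) with LPS in Vkine cells. Cad, the enzyme that starts pyrimidine synthesis, rose with LPS in Vkine cells (0.69 ± 0.07, SE, adjusted p = 8.7e-07) and fell with LPS in EV cells (-0.65 ± 0.08, SE, adjusted p = 1.2e-05).

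The 14 tested genes of the MYC and MAX network showed no common direction in the edgeR fit with TMM scaling. With Vkine 2 were called higher and 1 lower, with LPS in Vkine cells 3 higher and 3 lower, and with LPS in EV cells 4 higher and 2 lower. Of these genes, 21.4% were called with Vkine (35.2% of all genes), and 42.9% with LPS in Vkine cells (51.9%) or EV cells (34.8%). The small counts moved with the method and with single samples. With limma on log2 FPKM 1 was higher and 6 lower with LPS in Vkine cells, and 6 higher and 1 lower in EV cells. With LPS in Vkine cells upper-quartile factors gave 3 higher and 6 lower, and DESeq2 gave 3 higher and 5 lower. Without EV replicate 1 the counts were 1 higher and 0 lower with Vkine, and 1 higher and 1 lower with LPS in EV cells. With LPS in EV cells 1 was higher and 1 lower without EV replicate 2 too, 2 higher and 1 lower without EV + LPS replicate 1, and 6 higher and 5 lower without EV + LPS replicate 2. With Vkine 4 were higher and 3 lower without EV + LPS replicate 2, 2 higher and 2 lower without EV + LPS replicate 3, and 2 higher and 0 lower without EV replicate 2 or Vkine replicate 3. With LPS in Vkine cells 2 were higher and 1 lower without Vkine + LPS replicate 3, and 3 higher and 5 lower without EV + LPS replicate 2 or 3. Max, the partner of MYC, averaged 178 ± 6.66 CPM in Vkine + LPS, 118 ± 3.26 CPM in Vkine, 146 ± 13.3 CPM in EV + LPS (SD, n = 3 each) and 135 ± 4.14 CPM in EV cells (n = 2), and was raised by LPS in Vkine cells (0.60 ± 0.07, SE, adjusted p = 3.3e-06). Mxi1, which pairs with MAX and opposes MYC, was lowered by LPS in Vkine cells (-0.55 ± 0.07, SE, adjusted p = 1.1e-05) and raised by it in EV cells (0.31 ± 0.08, SE, adjusted p = 0.0064). Of 27 proliferation genes 2 were called higher and 7 lower with Vkine (16.9% and 18.3% of all genes). With limma on log2 FPKM these counts were 3 higher and 2 lower. They were 1 higher and 1 lower without EV replicate 1, 1 higher and 2 lower without EV replicate 2, and 1 higher and 3 lower without Vkine replicate 3. With LPS in Vkine cells 8 were called higher and 7 lower (27.6% and 24.3% of all genes), and 3 higher and 14 lower with limma on log2 FPKM.

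**Figure D4:**
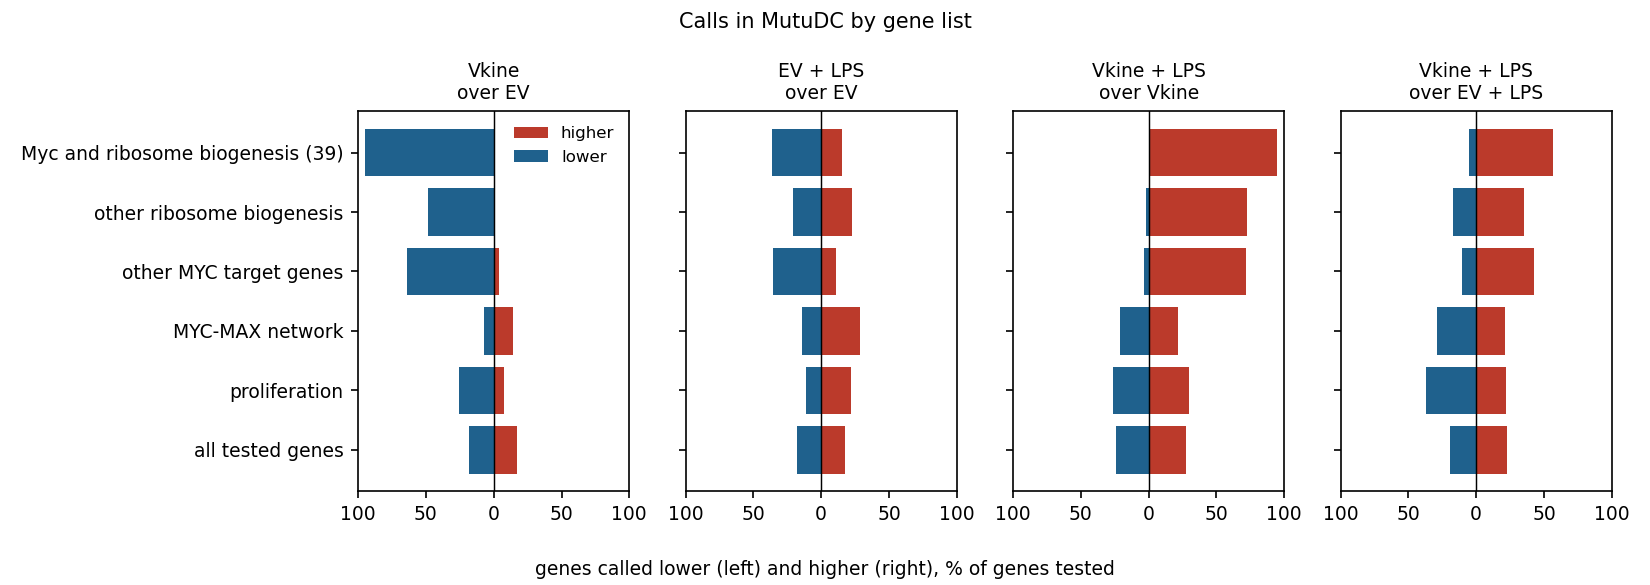
Share of the tested genes of each list called lower (blue, to the left) and higher (red, to the right) in 4 MutuDC comparisons, with all 13357 tested genes as the bottom bar. The listed genes are called lower with Vkine (37 of 39) and higher with LPS in Vkine cells (37 of 39), and are split with LPS in EV cells (6 higher, 14 lower).

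Other measures also differed between the MutuDC arms. Mitochondrial genes took 0.936% to 1.03% of counts in Vkine + LPS libraries, 1.72% to 1.86% in Vkine libraries, 1.73% to 1.96% in EV + LPS libraries and 1.36% to 1.41% in EV libraries. The summed dendritic cell markers ran from 19914 to 21532 CPM in Vkine + LPS, 15407 to 16251 CPM in Vkine, 16576 to 20261 CPM in EV + LPS and 17443 to 17965 CPM in EV samples, with 8 of the 13 called lower and 1 higher with Vkine. The 12 macrophage markers summed to 352 to 392 CPM in Vkine + LPS, 215 to 243 CPM in Vkine, 225 to 267 CPM in EV + LPS and 276 to 287 CPM in EV samples. Of the 8 tested, 5 were called higher and 2 lower with Vkine (median log2 fold change 1.24), so that their sum and their median had opposite directions, and 6 were called higher and 1 lower with LPS in Vkine cells. Over all genes 16.9% were called higher and 18.3% lower with Vkine, and 27.6% higher and 24.3% lower with LPS in Vkine cells. Csf1r, the receptor of a macrophage growth factor, averaged 22.2 ± 0.296 CPM in Vkine (n = 3) and 144 ± 6.87 CPM in EV cells (SD, n = 2). The 12 neutrophil markers summed to 2306 to 2392 CPM in Vkine + LPS, 3577 to 4004 CPM in Vkine, 2238 to 2293 CPM in EV + LPS and 2212 to 2251 CPM in EV samples, which set the Vkine arm apart as the listed genes did, in the other direction. Of these markers 2, Mmp9 and Il1r2, reached 1 CPM, while S100a8, S100a9, Csf3r, Mmp8 and Camp had 0 counts in every arm. The 6 monocyte markers summed to 29.7 to 33.0 CPM in Vkine + LPS, 41.2 to 49.5 CPM in Vkine, 40.8 to 44.5 CPM in EV + LPS and 23.6 to 24.5 CPM in EV samples, with both tested markers called higher with Vkine. The part of these measures in the results above was not tested.

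In CD45+ cells 0 of the 39 genes were called between Vkine and EV, where edgeR called 0.0286% of 14006 genes. DESeq2 and limma called 0 of the 39 as well, and 11 had an unadjusted edgeR p under 0.05, against 12% of all genes. The log2 fold change was below 0 for 34 of the 39, against 50.3% of all genes, with a median of -0.26 against 0.00. Samples of the groups did not overlap in 13 of the 39 genes (18.6% of all genes). Leaving out each sample in turn gave medians from -0.30 to -0.22, and 0 calls each time.

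Values are given here for Myc and for Gar1, Nop16 and Bysl, which had the smallest unadjusted p of the list. Gar1 was measured at 12.8, 12.1 and 9.01 CPM with Vkine and 13.4, 24.0 and 24.3 CPM with EV. Every Vkine sample was below every EV sample, narrowly for EV replicate 1. The log2 fold change was -0.86 ± 0.27 (SE, adjusted p = 0.29), and Gar1 was the one gene of the list called when low-count genes were kept (adjusted p = 0.034). Nop16 had 25.1, 25.9 and 20.5 CPM with Vkine and 39.6, 36.6 and 34.7 CPM with EV, and the log2 fold change was -0.63 ± 0.16 (SE, adjusted p = 0.27). Bysl had 20.2, 19.4 and 16.2 CPM with Vkine and 25.0, 28.4 and 29.9 CPM with EV, and the log2 fold change was -0.58 ± 0.18 (SE, adjusted p = 0.29). The groups of both genes were apart. Myc ran the other way, at 92.9, 57.8 and 78.8 CPM with Vkine and 52.6, 63.7 and 54.9 CPM with EV. Its groups overlapped, and the log2 fold change was 0.42 ± 0.18 (SE, adjusted p = 0.40).

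**Figure D5:**
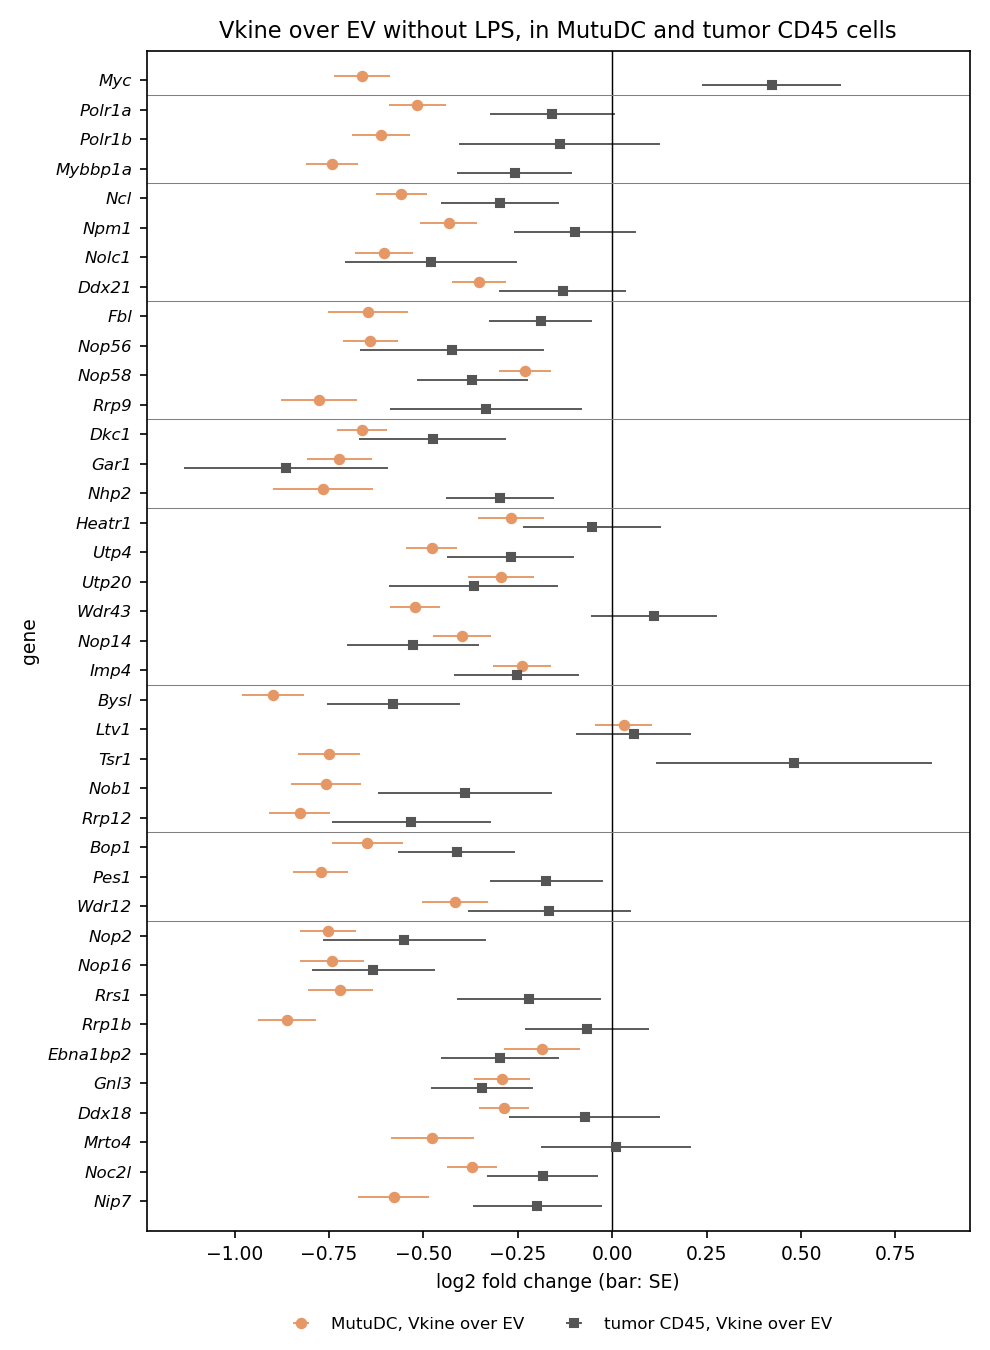
Log2 fold change of Vkine over EV without LPS for each of the 39 genes in MutuDC (circles) and in tumor CD45 cells (squares), with bars of 1 SE. Of the genes 38 lie below 0 in MutuDC and 34 in CD45 cells, where the bars are longer and Myc, at 0.42, lies above 0.

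Summed levels of cell type markers also varied between the CD45 samples, although 0 markers were called higher and 0 lower between Vkine and EV. Ranges of Vkine and EV overlapped for macrophage, dendritic cell, erythroid and fibroblast markers. The 12 neutrophil markers summed to 4154 to 6565 CPM with Vkine and 518 to 2498 CPM with EV, and the 12 T cell markers to 40.7 to 76.1 CPM with Vkine and 17.2 to 29.1 CPM with EV. The macrophage markers summed to 9740 to 13387 CPM with Vkine and 12239 to 15103 CPM with EV, and the 13 conventional dendritic cell markers to 2516 to 4141 CPM with Vkine and 1479 to 2574 CPM with EV. Erythroid markers ran from 11.1 to 314 CPM with Vkine and from 8.47 to 28.6 CPM with EV, and fibroblast markers from 156 to 258 CPM with Vkine and from 99.0 to 195 CPM with EV. The median log2 fold change was 1.69 for neutrophil, 1.54 for T cell, -0.26 for macrophage and 0.71 for dendritic cell markers. Of 27 proliferation genes 26 had a log2 fold change below 0 (median -0.38), and mitochondrial genes took 2.47% to 10.6% of counts with Vkine and 4.32% to 5.56% with EV. In bulk RNA, fewer cells of a type and less RNA per cell cannot be told apart, and the part of these differences in the values of the 39 genes was not tested.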

How the data were processed

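RNA was measured by sequencing in 17 mouse samples of 6 groups. The submitters' processing notes name STAR and fastp without a version, featureCounts (1.5.0-p3), DESeq2 (1.20.0) and the build GRCm38. The authors deposited raw counts per gene and FPKM, which are scaled by gene length and library total. The length behind the MutuDC FPKM is not defined in the sources used here, so FPKM were compared within a gene only. Counts were used for the tests. The FPKM of the 2 sets were scaled separately, so levels were not compared between sets.

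MutuDC (1 model of 4 groups, 11 samples) and CD45 (3 against 3) were fitted apart by the quasi-likelihood F test of edgeR 4.0.16 under R 4.3.3, robust version, after filterByExpr and TMM scaling, with Benjamini-Hochberg adjustment over all genes tested and calls at an adjusted p under 0.05. SE is that of the log2 fold change. Depth was 13814620 to 21263321 counts a library. The pipeline was run on simulated data for Vkine over EV without LPS in each set alone. How often it found or missed a change there is not given here. The LPS comparisons and the interaction were not simulated. The genes and lists were chosen with earlier results of these data known, so no list was tested as a set.

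The named genes were drawn from Myc, the gene with the smallest p in each role and the up to 5 called genes with the largest fold change in each direction. From the other lists they were some of the up to 3 such genes whose mean log2 CPM reached 2. Not every gene picked this way is given with values. In CD45 cells Nolc1, Nop58, Mybbp1a, Bop1 and Nop14, each with the smallest p of its role, are left out. Genes named beside these were chosen after their values were seen. Promoter windows were searched for CACGTG.

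The alternatives were DESeq2 factors and upper-quartile factors, no filter and a CPM of at least 1, DESeq2 1.42.0, limma 3.58.1 on log2 FPKM with 1 or 0.1 added, no robust estimation, a replicate block, a fit of only the groups compared, and each sample left out in turn. In MutuDC same-numbered samples did not deviate together. The correlation of their deviations from the group means was -0.10 to 0.096 over 15 pairs, against -0.14 to 0.16 over 30 differently numbered pairs. The deviations of the 2 EV samples mirror each other by construction. In the CD45 set it was -0.05 to 0.036 over 2 same-numbered pairs and -0.12 to 0.17 over 7 others. These are too few to settle the pairing, and the letters in those titles are not explained. Figures were drawn with matplotlib 3.10.9 under Python 3.11.15.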

Additional observations from a re-analysis of the deposited data

Results flagged for a closer look

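The genes below had an LPS effect that differed between the Vkine and EV arms of MutuDC by the test of the interaction in edgeR. Most were chosen for a large or low-p interaction, so their number is no result, and over all genes 49.2% were called. The values are the log2 fold change with LPS in Vkine cells minus that in EV cells. Among the listed genes the difference was 1.53 for Rrp9, 1.41 for Bysl, 1.36 for Nob1, 1.32 for Mybbp1a, 1.29 for Rrp12, 1.24 for Gar1, 1.2 for Pes1, 1.09 for Nop2, 0.86 for Myc, 0.68 for Utp4 and 0.64 for Nolc1. It was -0.41 for Ltv1, the one listed gene below 0.

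Among other ribosome biogenesis genes it was 1.75 for Cd3eap, 1.57 for Imp3 and 1.44 for Wdr46, and below 0 for Taf1d (-0.79) and Taf1b (-0.57), both subunits of the promoter factor of RNA polymerase I, and for Utp11 (-0.49). Among other MYC target genes it was 1.34 for Cad, 1.28 for Ifrd2 and 1.24 for Tfap4, and below 0 for Ccnd2 (-0.44) and Eif4e (-0.29). In the MYC and MAX network it was 0.53 for Zbtb17, 0.49 for Max and 0.41 for Mlxip, and below 0 for Mxi1 (-0.86), Mxd1 (-0.76) and Mycbp (-0.65). The call of Mlxip was lost in 15 of 20 alternatives and that of Zbtb17 in 3, including without EV replicate 1, where its difference was 0.37.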

How the results depend on the processing

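All 21 alternatives (20 for the interaction, 15 in the CD45 set) kept the direction of each median. The count of called genes stayed within 1.5 times its value except in 2 comparisons. For LPS in EV cells it was 12 with only the compared groups fitted and 10 to 26 without 1 replicate, and for the CD45 set it was 1 without the low-count filter. The other counts without 1 replicate were 31 to 38 for Vkine over EV, 37 to 39 for LPS in Vkine cells, 21 to 29 for Vkine + LPS over EV + LPS, 32 to 36 for the interaction and 0 in CD45 cells. With log2 FPKM + 1 and + 0.1, the median was -0.51 and -0.52 for Vkine over EV, 0.52 and 0.53 for LPS in Vkine cells, 0.16 with both for Vkine + LPS over EV + LPS, and 0.60 and 0.61 for the interaction. With upper-quartile factors it was 0.18 for Vkine + LPS over EV + LPS and 0.68 for the interaction, where the median of all genes was -0.10. The interaction median was 0.70 to 0.80 without 1 replicate. The log2 fold change of Myc with LPS in EV cells was -0.092 to 0.00176 without 1 replicate and turned above 0 without EV + LPS replicate 2. The cause was not tested.

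With the replicate block the counts were 36 for Vkine over EV, 16 for LPS in EV cells (2 higher), 37 for LPS in Vkine cells, 23 for Vkine + LPS over EV + LPS and 36 for the interaction. In CD45 cells the count was 0, but just 2 pairs of samples shared a number. That fit had little left to estimate the spread, so its 0 says little. In MutuDC same-numbered samples did not deviate together, and 2 CD45 pairs cannot settle this, so the numbers were not taken as pairs. Depth and 2 EV samples limit what small log2 fold changes can show.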
